A study of Sus scrofa with 15 samples.

Results

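The genes of the mitochondrial protein import machinery were described in pig oocytes at the germinal vesicle (GV) stage and after *in vitro* maturation. Members were chosen by symbol alone: symbols that start with TOMM or TIMM and a digit, together with *SAMM50*, *MTX1*, *MTX2*, *MTX3*, *GRPEL1*, *GRPEL2*, *PAM16*, *CHCHD4*, *GFER*, *PMPCA* and *PMPCB*. This gave 30 genes of the 18717 genes whose counts could be computed, and all 30 were among the 13222 genes that passed the filter on low counts. No identifier in the gene name table carried the symbols *GRPEL1* or *PAM16*, nor *TIMM9*, *TIMM23*, *TOMM5* or *TOMM6*, and these genes were not analysed here.

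Nearly all mitochondrial proteins are encoded in the nucleus and made in the cytosol, so they have to be imported. The translocase of the outer membrane (TOM) is the common gate. From there the sorting and assembly machinery (SAM) inserts barrel-shaped proteins into the outer membrane, the TIM23 translocase and its motor pull proteins with a presequence into the matrix, and the TIM22 translocase, fed by the small TIM chaperones, inserts carriers into the inner membrane. In the intermembrane space, CHCHD4 and GFER fold small proteins by forming disulfide bonds, and in the matrix the processing peptidase cuts off the presequence. The oocyte supplies the mitochondria and the stored mRNAs of the early embryo.

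Sow ovaries came from an abattoir. GV oocytes were freed from fresh cumulus oocyte complexes and not cultured, and have no first polar body. MII and ‘damaged’ oocytes came from complexes matured *in vitro* for 44 h by the labels (the paper's methods give a range of hours that ends there), after which oocytes with a first polar body were classed as MII and those without as ‘damaged’, so that ‘damaged’ is a class by polar body alone. Cumulus cells were removed with hyaluronidase in all groups, and the oocytes carried no genetic change. There were 5 libraries per group, each a pool of 15 oocytes. GV replicate 3 had the lowest total (6.40 M of a range up to 23.57 M estimated counts) and was left out, since the study also removed a GV sample of low depth, without naming its replicate number. The remaining 4 GV libraries were compared with MII, with ‘damaged’ and with both together (MIX, n = 10). The paper describes 5 independent collections with 15 oocytes of each group, so pools of different groups may share a collection. No source ties a library to particular animals or to a collection. Libraries were therefore not paired in the main fit, and the p-values measure the spread between these pools.

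Import genes were mostly lower after maturation. Of the 30 genes, 21 (70.0%) were lower in MIX than in GV oocytes at an FDR under 0.01 (limma-voom, Benjamini-Hochberg over all genes tested), where 37.0% of all genes tested were lower. Only 4 (13.3%) were higher, *TOMM7*, *MTX3* and, only with the scaling described next, *PMPCB* and *TIMM8B*, where 30.0% of all genes were higher, and 5 passed in neither direction. With the additional threshold of an absolute log2 fold change over 2, which defines a differentially expressed gene (DEG), 15 of the 30 members were lower against 16.8% of all genes and 0 were higher against 4.27%. The median log2 fold change of the members was -2.07, and that of all genes tested was -0.16. In pools of oocytes, fewer cells of a type and less RNA per cell cannot be told apart, and all levels are relative to the total of the library.

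These folds depend on how the libraries are scaled. Trimmed mean of M-values (TMM) factors, which assume that most genes do not change, ranged over 1.35 to 1.73 for the GV libraries and over 0.794 to 0.922 for those of MIX. Without them, on library sizes alone, log2 fold changes shifted by a median of -0.89. There, 26 members were lower (60.1% of all genes), 2 were higher (*TOMM7* and *MTX3*; 11.9% of all genes), 19 were DEGs in the lower direction (28.6% of all genes) and 0 in the higher (0.348%). The median there was -2.96 for members and -1.06 for all genes. The median member thus lay below the median gene under both scalings. Since the factors shift all genes by similar amounts, the 2nd comparison is no check of the 1st.

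The summed levels of markers of other cell types were lower after maturation too. The summed level of 10 cumulus and granulosa cell markers with an identifier, of 12 listed, was 7.11 to 11.3 TPM (a level per transcript length, with an equal sum in every library) in the 4 GV libraries, 0.515 to 3.42 TPM in MII and 0.586 to 0.918 TPM in ‘damaged’ libraries. Of these markers, *LHCGR* and *PTX3* had no count in the gene table columns used, and only *HSD17B1* and *STAR* passed the filter. *HSD17B1* fell from a mean of 5.95 TPM in GV to 0.0452 TPM in MIX (log2 fold change -5.74), whereas *STAR* was not called (-0.31, FDR 0.369, limma-voom). White blood cell markers (4 of 4 with an identifier) summed to 5.58 to 9.07 TPM in GV libraries, while the highest MIX library had 1.84 TPM. The 10 oocyte markers were all tested and summed to 16854 to 21998 TPM at the GV stage, against 5106 to 7872 TPM after maturation. The part of these other cells in the results below was not tested.

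**Figure D1:**
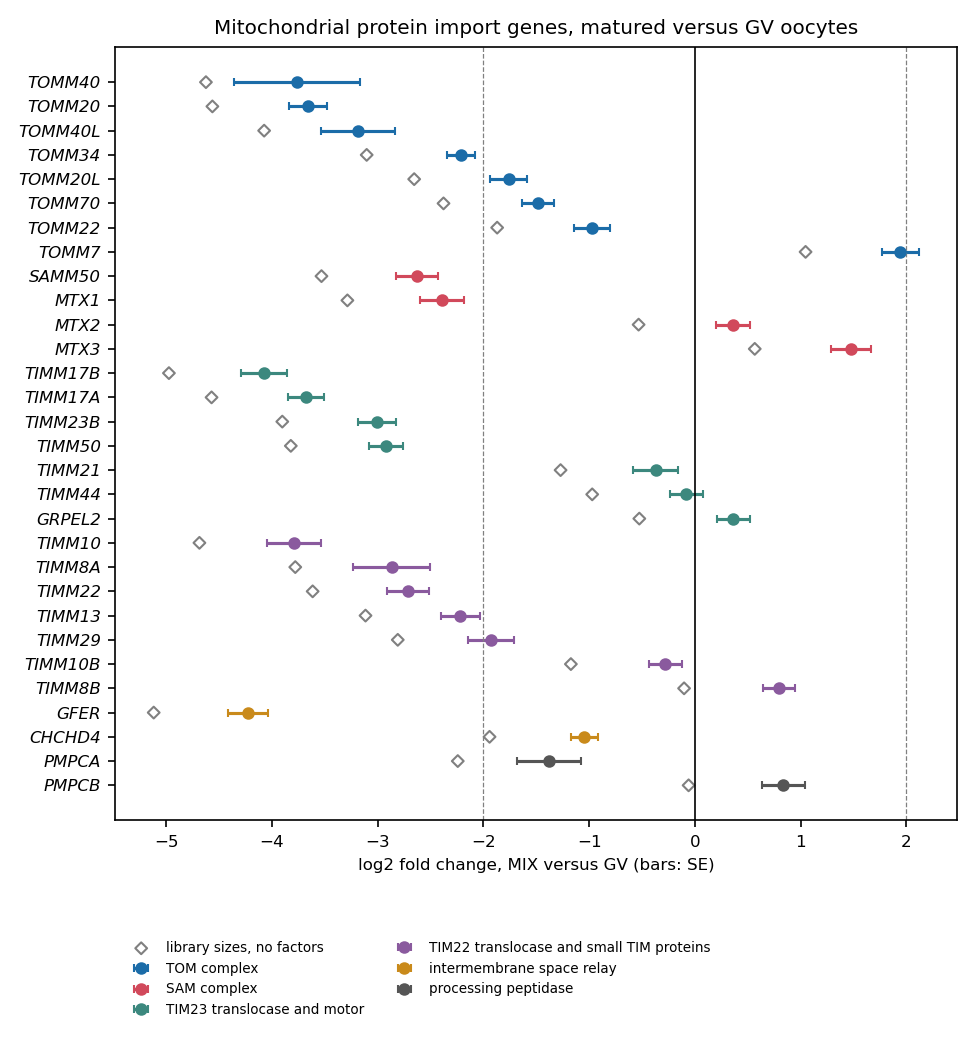
Log2 fold change of each of the 30 import genes in MIX against GV oocytes (x axis; filled points with SE, TMM-scaled; open diamonds, library sizes without factors; dashed lines at the DEG threshold of 2), grouped by complex. With TMM factors 24 of 30 points lie left of 0, and *MTX2*, *GRPEL2*, *TIMM8B* and *PMPCB* lie right of 0 only with these factors.

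Among the 8 genes of the TOM group, 7 were lower in MIX and 1 was higher, beside 37.0% and 30.0% of all genes tested. *TOMM20*, the receptor that recognises presequences, fell 12.7-fold (chromosome 14, 56113087 to 56127686; Sscrofa11.1). Its levels in GV replicates 1, 2, 4 and 5 were 146, 81.7, 112 and 68.0 CPM (counts relative to the TMM-scaled total of the library). In the 10 MIX libraries they ran from 5.95 through a median of 7.78 to 9.68 CPM. The groups did not overlap, and the log2 fold change was -3.66 ± 0.18 (SE; FDR 1.05e-12). The MII libraries (7.68, 7.22, 8.84, 6.38 and 8.52 CPM) and the ‘damaged’ libraries (7.23, 5.95, 9.68, 8.06 and 7.87 CPM) covered the same low range.

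*TOMM20L*, a homologue of *TOMM20* (chromosome 1, 187474745 to 187496040), changed less. Its GV levels were 43.8, 51.1, 42.7 and 40.3 CPM, and its MIX levels had a median of 12.02 CPM (9.34 to 21.2). The groups were again separate, with a log2 fold change of -1.76 ± 0.17 (FDR 1.66e-08). Since *TOMM20L* overlaps *TIMM9* in the RefSeq annotation, part of its reads may belong to that gene.

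*TOMM40*, the pore of the TOM complex (chromosome 6, 51359948 to 51369932), had the lowest log2 fold change of the TOM group and also the least certain one, at -3.76 ± 0.60 (FDR 1.05e-05). It was hardly detected. GV levels were 0.861, 1.22, 1.85 and 5.32 CPM, from 16.9 to 128 estimated counts, and MIX levels ran from 0 to 0.684 CPM with a median of 0.103. MII replicate 3 and ‘damaged’ replicate 4 had no count. GV replicate 5 stood highest, yet even the lowest GV library lay above each MIX library. *TOMM40L*, the second pore gene (chromosome 4, 89230729 to 89235504; overlapping *NR1I3*), was similarly rare with 2.97, 4.12, 2.41 and 4.49 CPM in GV and a median of 0.321 CPM (0.0926 to 1.05) in MIX, a log2 fold change of -3.19 ± 0.35 (FDR 9.13e-08).

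*TOMM7* went the other way. This small subunit, which helps to assemble the TOM complex and to hold PINK1 there (chromosome 9, 91570069 to 91578991), had 185, 152, 148 and 81.1 CPM in GV libraries. MII libraries had 526, 504, 536, 527 and 433 CPM, and ‘damaged’ libraries 636, 647, 523, 558 and 380 CPM. Each MIX library lay above each GV library, and *TOMM7* rose 3.85-fold (log2 fold change 1.94 ± 0.17, FDR 4.17e-09), just under the DEG threshold. On library sizes it still rose, by 1.05.

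The other members of the TOM group fell. *TOMM34*, a cytosolic cochaperone, fell 4.62-fold (log2 fold change -2.21), *TOMM70*, the receptor for carriers, 2.80-fold (-1.48), and *TOMM22*, the central receptor, 1.96-fold (-0.97). The GV libraries agreed closely for these genes, with 123 to 131 CPM for *TOMM34* and 136 to 151 CPM for *TOMM70*. Their MIX libraries reached at most 36.1 and 68.1 CPM.

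**Figure D2:**
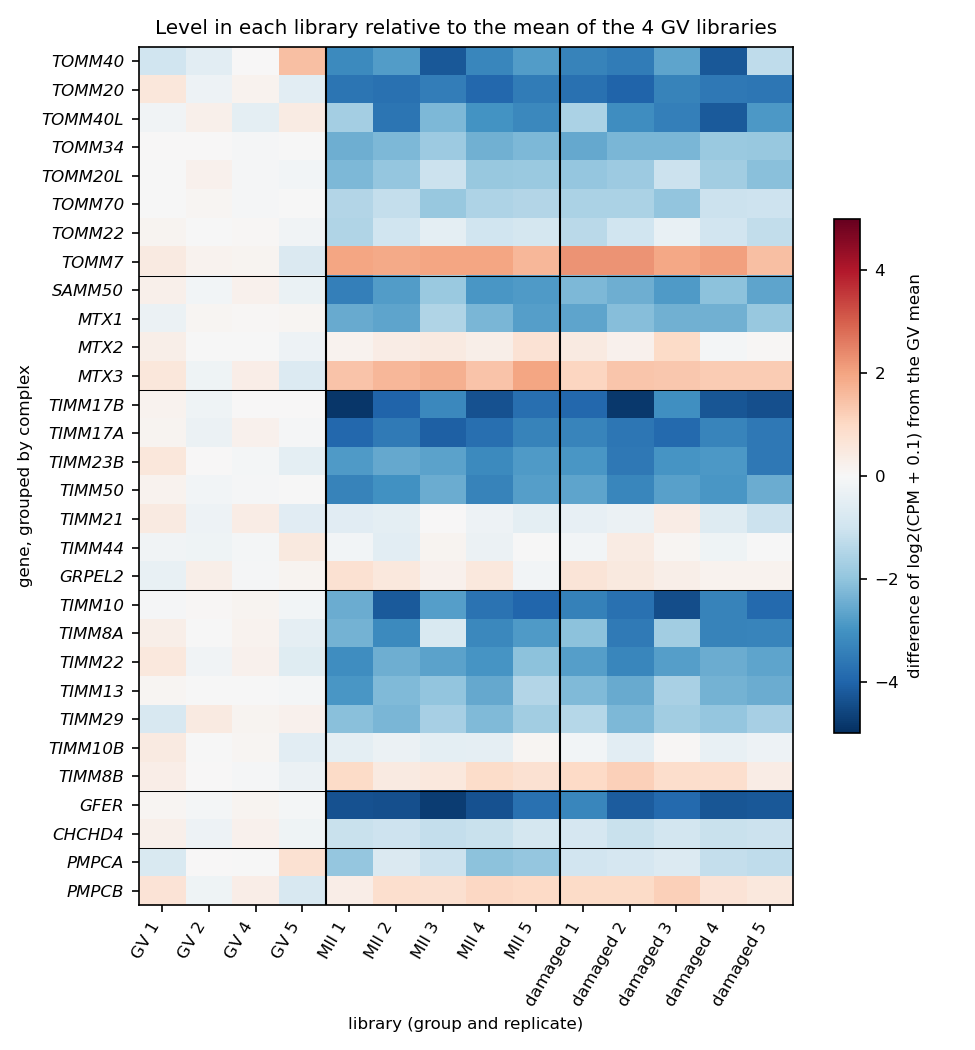
Level of each import gene (rows, grouped by complex) in each of the 14 libraries (columns), as the difference of log2(CPM + 0.1) from the mean of the 4 GV libraries; blue is lower, red higher. The MII and ‘damaged’ columns show the same pattern, blue for 20 genes whose MIX libraries all lie below the GV libraries and red for *TOMM7*, *MTX3* and *TIMM8B*, whose MIX libraries all lie above them (on library sizes *TIMM8B* had a log2 fold change of -0.10).

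The SAM group split. *SAMM50*, the channel that inserts barrel proteins (chromosome 5, 5035893 to 5072550), had 17.9, 13.5, 17.5 and 12.04 CPM in GV and a median of 2.19 CPM (1.33 to 4.10) in MIX libraries. It fell 6.19-fold without overlap (log2 fold change -2.63 ± 0.20, FDR 3.69e-10), but with estimated counts summed per gene the log2 fold change was -1.57 and no longer that of a DEG. Its metaxin partners, which sit on the cytosolic face of SAM, differed from each other. *MTX1* (chromosome 4, 94606576 to 94611439) had 4.74, 6.31, 6.10 and 6.34 CPM in GV and a median of 1.02 CPM (0.777 to 1.97) in MIX, and fell 5.25-fold (-2.39 ± 0.21, FDR 2.47e-09).

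*MTX2* (chromosome 15, 82061381 to 82139073) had overlapping groups, with 104, 85.6, 83.7 and 72.8 CPM in GV and 80.5 to 168 CPM, median 108, in MIX. Its log2 fold change was 0.36 ± 0.16 and did not pass the threshold (FDR 0.0494), whereas on library sizes *MTX2* was called lower (-0.53, FDR 0.00429). *MTX3* (chromosome 2, 88664511 to 88680367) rose 2.78-fold with TMM factors (1.48 ± 0.19, FDR 6.05e-07). On library sizes its log2 fold change was only 0.57 (FDR 0.00674). Its GV levels were 16.2, 9.59, 13.99 and 6.82 CPM, its MII levels 29.8, 34.7, 37.8, 29.5 and 44.1 CPM and its ‘damaged’ levels 23.5, 28.9, 28.3, 26.8 and 26.5 CPM. With TMM factors, all matured libraries thus exceeded all GV libraries.

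In the TIM23 group, 4 of 7 genes were lower, all of them DEGs, and 3 passed in neither direction with TMM factors, while on library sizes these 3 were called lower too. Of all genes tested, 37.0% were lower with TMM factors, and 16.8% were DEGs in that direction. *TIMM17B*, one of 2 alternative core subunits of the translocase (chromosome X, 42970586 to 42976287; overlapping *PQBP1*), fell 16.9-fold. Its GV levels were 107, 81.5, 94.9 and 95.1 CPM and its MIX levels had a median of 5.28 CPM (3.14 to 11.2), for a log2 fold change of -4.08 ± 0.22 (FDR 2.93e-12). *TIMM17A*, the other core subunit (chromosome 10, 24200345 to 24211790), started lower, at 25.0, 18.3, 26.0 and 21.6 CPM, and reached a median of 1.76 CPM (1.22 to 2.22) in MIX (-3.68 ± 0.17, FDR 4.52e-13). Both forms therefore fell, and neither overlapped between the stages.

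*TIMM23B*, which carries the channel sequence, fell 8.03-fold, and *TIMM50*, the receptor on the inner membrane side, fell 7.57-fold (-2.92). Reads of *TIMM23* itself, a close relative, may be counted with *TIMM23B*. The genes of the coupling and motor parts had smaller values. *TIMM44*, which anchors the motor, had a log2 fold change of -0.08 (FDR 0.658) with TMM factors and -0.97 (FDR 8.42e-05) on library sizes. *TIMM21*, which links the translocase to TOM and the respiratory chain, had -0.37 (FDR 0.125) with TMM factors and -1.27 (FDR 8.40e-06) on library sizes.

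*GRPEL2*, a nucleotide exchange factor of the motor chaperone (chromosome 2, 150510520 to 150520013; overlapping *IL17B*), had the highest value of the TIM23 group. It measured 51.0, 80.0, 62.7 and 71.0 CPM in GV and 58.9 to 112 CPM, median 86.7, in MIX libraries. The groups overlapped and the log2 fold change of 0.36 ± 0.16 missed the threshold (FDR 0.0428), whereas on library sizes *GRPEL2* was called lower (-0.52, FDR 0.00787). Its paralogue *GRPEL1* was not analysed here.

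Of the 7 genes of TIM22 and the small TIM chaperones, 5 were lower and 1 was higher, beside 37.0% and 30.0% of all genes tested. *TIMM10*, which forms the main carrier chaperone with TIMM9 (chromosome 2, 13393225 to 13396241, annotated there as a long non-coding RNA), fell 13.8-fold. It had 6.93, 7.63, 7.96 and 6.64 CPM in GV and a median of 0.461 CPM (0.240 to 1.22) in MIX libraries, a log2 fold change of -3.79 ± 0.26 (FDR 7.09e-11). The channel gene *TIMM22* fell 6.56-fold (-2.71), its partner *TIMM29* 3.80-fold (-1.93) and the small chaperone *TIMM13* 4.66-fold (-2.22).

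*TIMM8A* and *TIMM8B* encode alternative partners of TIMM13, and their log2 fold changes had opposite signs with TMM factors. *TIMM8A* (chromosome X, 82978128 to 82981038) was rare, with 3.502, 2.80, 3.21 and 2.02 CPM in GV and a median of 0.266 CPM (0.150 to 1.63) in MIX, and fell 7.30-fold (-2.87 ± 0.36, FDR 5.67e-07). *TIMM8B* (chromosome 9, 39788164 to 39790563) had 59.5, 47.6, 46.0 and 38.9 CPM in GV and a median of 86.6 CPM (62.1 to 109) in MIX, and rose 1.73-fold with TMM factors (0.79 ± 0.15, FDR 8.83e-05) but not on library sizes (-0.10). *TIMM8A* had -3.78 on library sizes. *TIMM10B*, a subunit that docks the chaperones to TIM22, ran from 160 to 316 CPM in GV and from 163 to 249.9 CPM in MIX libraries and had a log2 fold change of -0.28 (FDR 0.114), against -1.17 (FDR 2.09e-07) on library sizes.

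The largest fall of all members was that of *GFER*, the sulfhydryl oxidase that reoxidises CHCHD4 (ENSSSCG00000008035; chromosome 3, 39981938 to 39984451). GV libraries had 20.3, 17.7, 21.1 and 17.7 CPM. MII libraries had 0.843, 0.826, 0.610, 0.839 and 1.35 CPM, and ‘damaged’ libraries 1.88, 0.977, 1.20, 0.887 and 0.928 CPM. *GFER* thus fell 18.7-fold (-4.22 ± 0.19, FDR 3.27e-13) with no overlap. *CHCHD4*, the receptor and oxidoreductase of the same relay (chromosome 13, 70417326 to 70428923), had 80.5, 56.5, 76.8 and 56.9 CPM in GV and a median of 31.3 CPM (29.1 to 37.0) in MIX. It fell 2.06-fold (-1.04 ± 0.12, FDR 2.32e-07), also without overlap.

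The subunits of the processing peptidase had opposite signs with TMM factors. *PMPCA*, whose product binds the presequence (ENSSSCG00000031413), was rare, with 0.958, 1.69, 1.66 and 2.91 CPM in GV and a median of 0.722 CPM (0.334 to 1.01) in MIX libraries. The lowest GV library lay within the MIX range, and the log2 fold change was -1.38 ± 0.30 (FDR 0.000417). *PMPCB*, the catalytic subunit (chromosome 9, 103316161 to 103329653), had 147, 78.9, 117 and 52.8 CPM in GV and a median of 172 CPM (117 to 211) in MIX libraries. It was higher with TMM factors (0.84 ± 0.20, FDR 0.000965), but the groups overlapped and the log2 fold change on library sizes was -0.06.

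**Figure D3:**
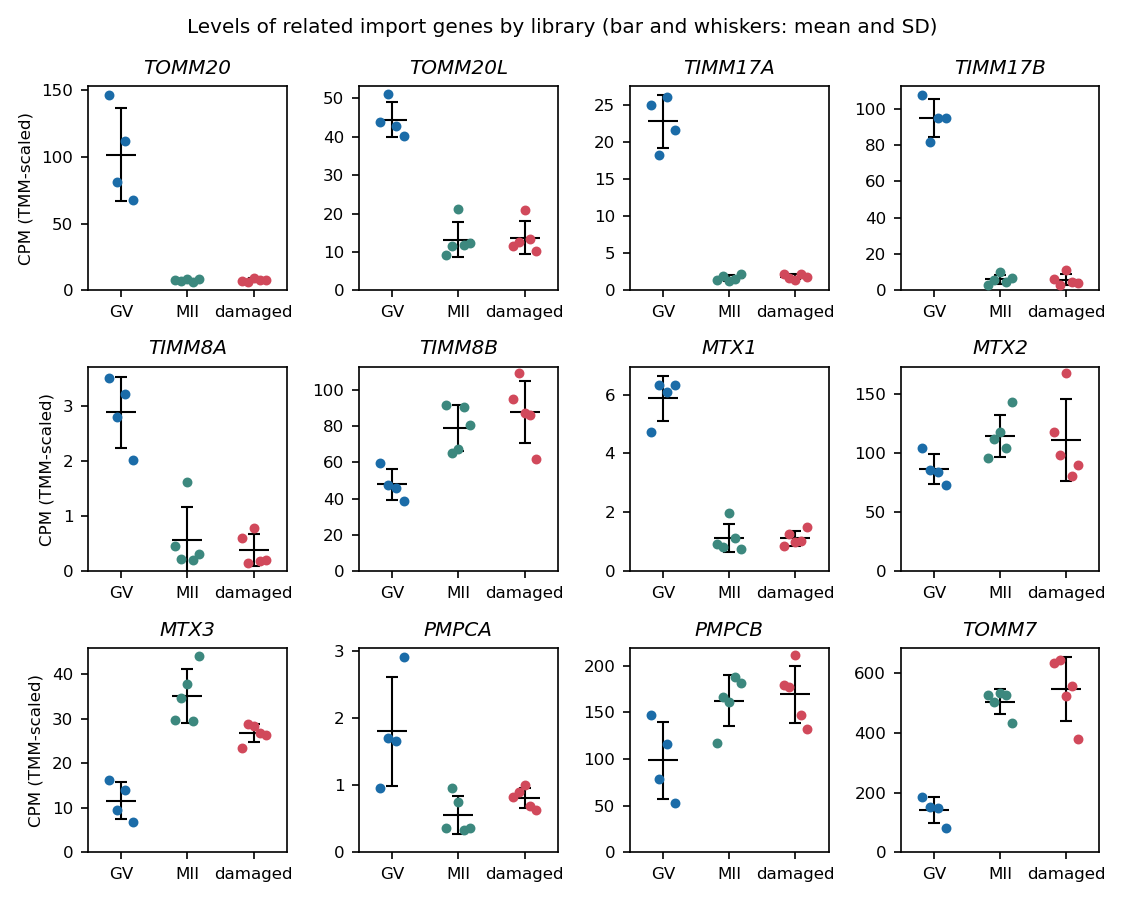
CPM (TMM-scaled, axes from 0) of 12 related import genes in the 4 GV, 5 MII and 5 ‘damaged’ libraries (points), with mean and SD. *TOMM20* falls from 68.0 to 146 CPM in GV to at most 9.68 CPM, while *MTX3* and *TOMM7* rise; the rises of *TIMM8B* and *PMPCB* are not present on library sizes (log2 fold change -0.10 and -0.06).

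In all, each MIX library lay below each GV library for 20 members (29.3% of all genes tested did so) and above for 3 (24.3% of all genes), and 7 members overlapped. GV replicate 3, scaled together with all 15 libraries, lay above each MIX library for all of those 20 members and below for all of those 3. The share of all genes for which this held was not computed, so it cannot be read as particular to these members. For 5 members the mean in MIX was under 1 CPM, and their folds rest on few counts.

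Levels per transcript length give the order between genes. In GV oocytes *TOMM7* was the most abundant member at 1245 ± 254 TPM (SD, n = 4), followed by *TIMM10B* (839 ± 105), *TOMM20* (299 ± 55.2), *MTX2* (200 ± 8.61) and *TIMM17B* (192 ± 26.2 TPM). The last pair did not differ beyond their spread. In MIX oocytes *TOMM7* held 2331 ± 293 TPM (n = 10), *TIMM10B* 343 ± 61.2, *PMPCB* 135 ± 21.7, *MTX2* 129 ± 30.6 and *TIMM8B* 72.9 ± 10.7 TPM. *TOMM20* was then at 11.6 ± 2.18 TPM. Summed over the 30 genes, import transcripts held 3721 to 4475 TPM in GV, 2940 to 3542 TPM in MII and 2940 to 3622 TPM in ‘damaged’ libraries, the rise of *TOMM7* included. GV replicate 3, left out of these ranges, held 3174 TPM, within the ranges of the MII and ‘damaged’ libraries. The rank of *TOMM7* in GV rests on its short effective length of 256 bases. By CPM its GV mean was 141, below that of *TIMM10B* (240). *TIMM13*, counted on a model of 8363 bases, ranks lower per length than by CPM. That model is longer than its RefSeq locus (chromosome 2, 76146946 to 76148163), and so is that of *TIMM8A* (4892 bases). The folds of both genes rest on these models, and how much of their counts comes from outside the locus was not tested.

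The members were shorter than the average gene, with a median effective length of 1417 bases against 2743 for all genes tested. Among the 4408 genes of up to 2000 bases, 43.0% were lower and 28.9% higher, and of the 20 members there, 13 were lower and 3 higher.

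MII and ‘damaged’ oocytes were compared to ask whether import transcripts differ with the polar body. Against GV, the MII libraries alone gave 21 members lower (34.2% of all genes) and 4 higher (28.2%), with 16 DEGs lower (17.0%) and 0 higher (4.51%). The ‘damaged’ libraries alone gave 20 lower (33.4%) and 4 higher (28.0%), with 15 DEGs lower (16.4%) and 0 higher (4.08%). Both comparisons share the GV libraries. The differences were *PMPCA*, which missed the threshold in ‘damaged’ oocytes (FDR 0.0121), and *TIMM29*, whose log2 fold change was -2.03 in MII and -1.83 in ‘damaged’ oocytes.

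For 7 of the 15 libraries, the deposited gene table and the transcript files carry different labels. The labels of the transcript files were used, and which of them are right between MII and ‘damaged’ was not tested. Compared directly, 0 members and 0 of 13222 genes were called between ‘damaged’ and MII oocytes (limma-voom; 0%). At an unadjusted p under 0.05, 195 genes (1.47%) and 0 members passed, and DESeq2 had 1 member under that value and 0 called. The share of 1.47% is below the 0.05 of genes that would pass if none differed, so the absence of calls does not show that the groups are equal. Member log2 fold changes ran from -0.38 for *MTX3* (unadjusted p = 0.0563, limma-voom) to 0.65 for *PMPCA*, with a smallest FDR of 1.00. The 95% intervals of 25 of 30 members lay within 1 log2 unit of 0. The widest was that of *TOMM40*, from -1.86 to 2.34, so for this rare transcript the data are compatible with any difference within that range. For *TOMM20* the interval was -0.50 to 0.53 and for *CHCHD4* -0.24 to 0.36.

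**Figure D4:**
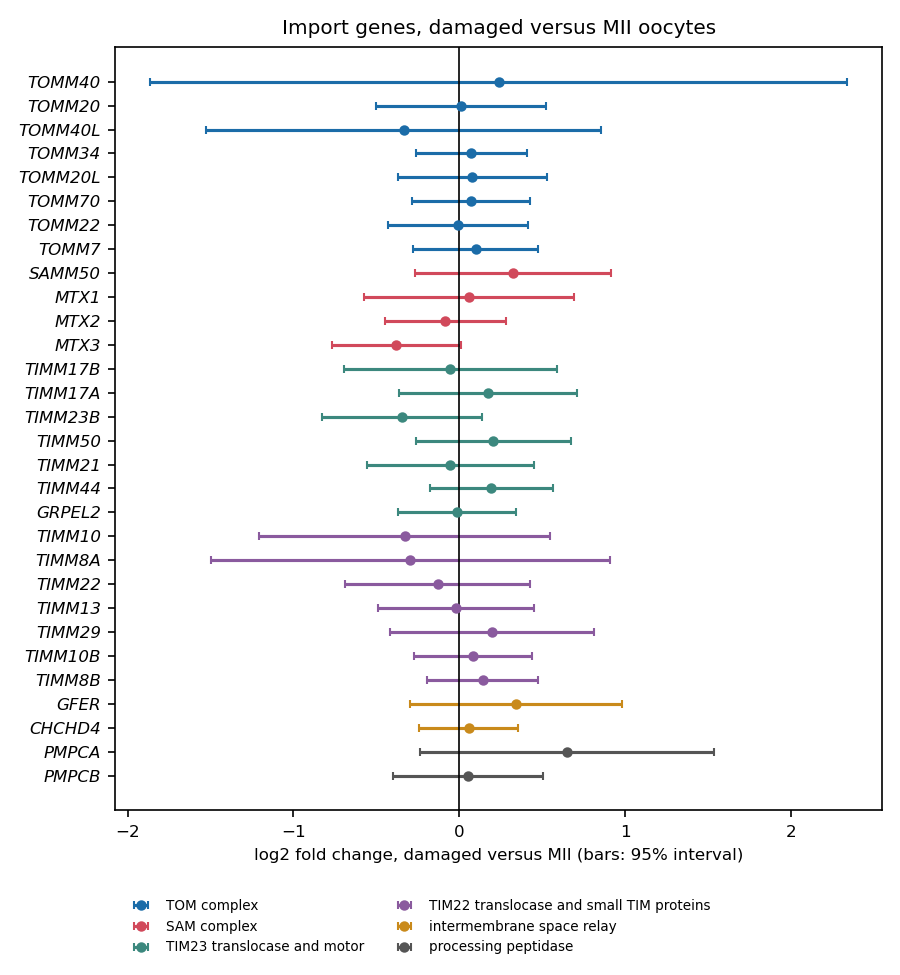
Log2 fold change of each import gene between ‘damaged’ and MII oocytes (5 libraries each) with its 95% interval, grouped by complex as coloured. Each interval includes 0, and the intervals are widest for the rare transcripts *TOMM40*, *TOMM40L* and *TIMM8A*.

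Isoform use was examined in the 13 members with at least 2 isoforms past the filters (gene over 1 TPM, isoform fraction over 0.05). Of their 36 isoforms, 14 in 7 genes changed their share between GV and MIX (FDR under 0.01 and a difference over 0.1 in isoform fraction; limma diffSplice), and 34.8% of all 12462 isoforms tested did so, a share close to that of the members.

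In *TIMM10B*, whose summed level passed the test only on library sizes and under 2 other alternatives, the isoform of 1399 bases held 21.1 to 26.2% of the gene's TPM in GV libraries and 42.6 to 49.7% in MIX libraries, and the 490-base isoform held the rest (FDR 4.36e-06). *PMPCB* moved from a 1503-base share of 7.92 to 46.3% to one of 55.7 to 64.9% (FDR 7.56e-07), as its 2155-base isoform fell from 23.7 to 6.38% of the mean level. These groups did not overlap.

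In *MTX2* the share of the 922-base isoform fell from 49.7 to 14.5% (FDR 4.99e-06), and in *MTX3* that of the 792-base isoform rose from 1.36 to 34.5% (FDR 0.00564). For *MTX3*, MII replicate 4 (4.67%) and ‘damaged’ replicate 1 (7.30%) lay close to the highest GV library (4.64%). These 2 libraries had only 5.46 and 4.75 estimated counts of this isoform. *SAMM50* lost its 1439-base isoform from 69.6 to 18.1% (FDR 1.67e-05), but single MIX libraries ranged from 0 to 78.1%, and *MTX1* (1520-base isoform from 64.9 to 18.8%, FDR 1.93e-06) had only 9.98 to 25.5 gene counts per MIX library. *TIMM22* showed a 646-base isoform at 0% in each GV library and 0 to 40.4% in MIX libraries. *TOMM20*, in contrast to its level, had similar shares for its 3226-base isoform, 15.2% in GV and 16.8% in MIX (FDR 0.777).

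**Figure D5:**
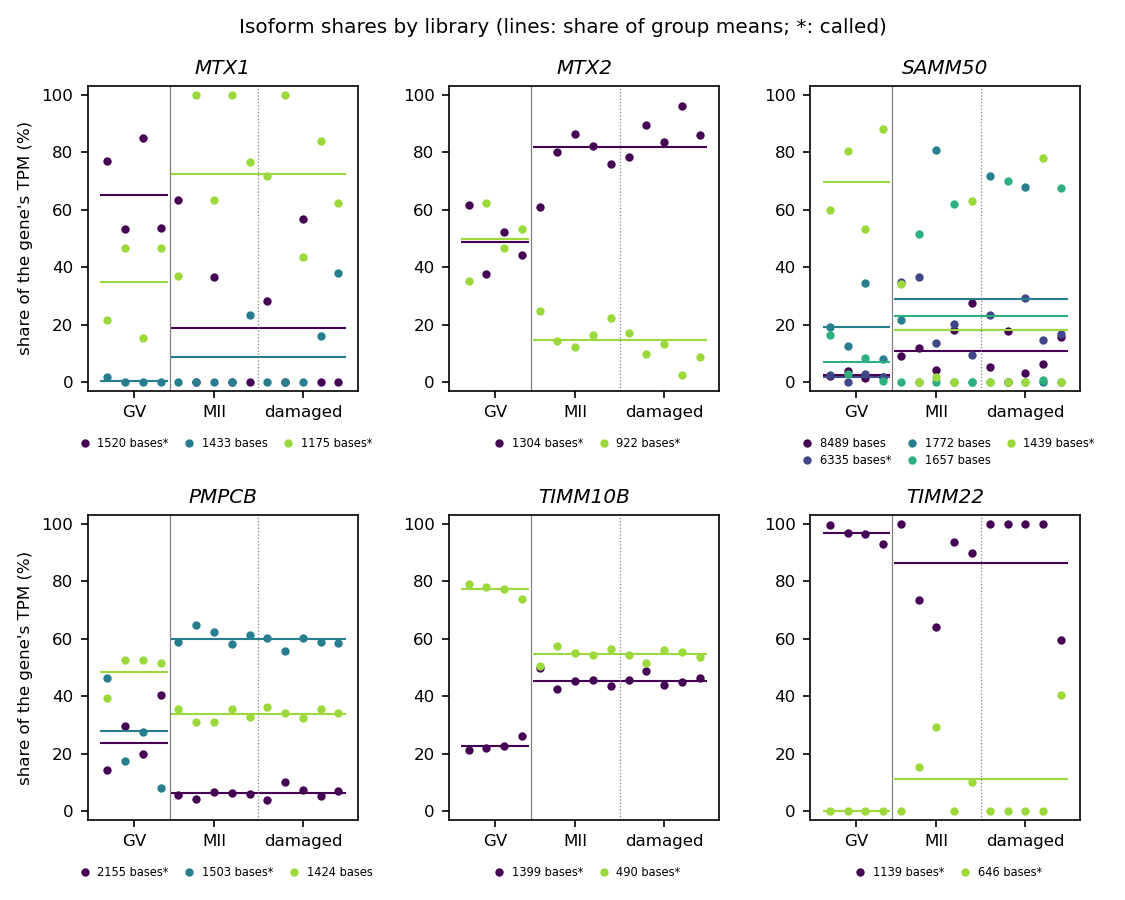
Share of each isoform in the TPM of its gene (%) in each library of GV, MII and ‘damaged’ oocytes for 6 of the 7 genes with a called isoform; lines give the share in the mean levels of GV and of MIX, and an asterisk marks a called isoform. *TIMM10B* and *PMPCB* show groups that do not overlap, while *SAMM50* and *MTX1* scatter widely between MIX libraries.

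The genes that work with or receive cargo from the import machinery were counted in 4 lists. Of 27 import partners tested (motor, chaperones, proteases, insertases and cristae organisers), 14 (51.9%) were lower and 7 (25.9%) higher, beside 37.0% and 30.0% of all genes tested. *HSPA9*, the motor chaperone that binds TIMM44, rose (log2 fold change 2.06, FDR 1.41e-11), as did *IMMP1L* (1.90), a peptidase of the inner membrane, the protease subunit *CLPX* (1.36) and the chaperonin *HSPD1* (1.29), which on library sizes lost its call (0.40, FDR 0.0221). *ROMO1* (-3.64), a small inner membrane protein tied to TIM23, *DNAJC11* (-3.20), *LONP1* (-2.65), a matrix protease, and the kinase *PINK1* (-2.61) fell most. The median of this list was -0.67.

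Of 13 tested genes listed as substrates of CHCHD4, 8 (61.5%) were lower and 5 (38.5%) higher, beside 37.0% and 30.0% of all genes tested. The complex I subunits *NDUFB7* (-5.53) and *NDUFA8* (-4.60) fell most, followed by *COX19* (-3.12) and *CMC4* (-2.56). *COA5* (1.52), *CHCHD1* (1.37), *CHCHD2* (0.99) and *CHCHD5* (0.89) were higher with TMM factors, and of these only *COA5* was still called higher on library sizes (0.62).

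Of 35 SLC25A carriers tested, 20 (57.1%) were lower and 9 (25.7%) higher, beside 37.0% and 30.0% of all genes tested. Most members of this family enter the inner membrane by way of TIM22. *SLC25A17* (-2.15), a carrier of peroxisomes, and *SLC25A46* (-0.54), a protein of the outer membrane, are exceptions to that route. The dicarboxylate carrier *SLC25A10* (-5.60) and the citrate carrier *SLC25A1* (-5.25) fell most, and *SLC25A31* (2.60), an ADP/ATP carrier of germ cells, and *SLC25A32* (1.82), a folate carrier, rose most. Among 64 mitochondrial ribosomal protein genes, whose products also have to be imported, 41 (64.1%) were lower and 15 (23.4%) higher, with *MRPL28* (-5.61) and *MRPL12* (-5.36) at one end and *MRPL44* (2.17) and *MRPS35* (1.95) at the other. The median log2 fold changes were -1.05 for the CHCHD4 substrates, -0.54 for the carriers and -1.37 for the ribosomal proteins, against -2.07 for the import genes. On library sizes 19, 8, 23 and 48 genes of the 4 lists, in the order given, were lower and 3, 1, 4 and 8 higher, beside 60.1% and 11.9% of all genes.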

How the data were processed

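RNA of pig oocyte pools was turned into cDNA with the SMART-Seq HT kit, which primes at poly(A) tails, so a change of tail length and of transcript level cannot be told apart. It was sequenced single-end, the kit does not mark the strand, and for 8 members that overlap another RefSeq gene, reads of both may mix. The authors made the deposited estimated counts and TPM values per transcript with Kallisto (version 0.43 in the submitters' processing notes) on Sscrofa11.1, TPM having an equal sum in every library. The deposited gene table holds estimated counts made by the authors with tximport (lengthScaledTPM).

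In 8 of the 15 columns of the gene table, name and total matched the labelled library. In the remaining 7 columns the total was that of a differently labelled transcript file, and none of them was used. The labels of the transcript files were followed, which was not tested between MII and ‘damaged’. Transcripts were assigned to genes by matching sums of neighbouring transcripts to these 8 columns, and counts of all 15 libraries were computed from the transcript files, whose samples are given with the files. This placed 99.995 to 99.999% of each library's counts and differed from the columns by at most 0.0029%. On simulated data 3746 of 3746 genes got their exact transcripts. A symbol was found for 14319 of the 18717 genes. Positions are those of RefSeq (Sscrofa11.1) by symbol, for 28 members, and no sequences were at hand to print.

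Genes were filtered with filterByExpr (at least 10 counts, 15 in total) and tested with limma 3.58.1 (voom) and TMM factors of edgeR 4.0.16 in R 4.3.3, in 1 fit of 3 groups and 14 libraries. Alternatives included edgeR's quasi-likelihood test and DESeq2 1.42.0 on rounded counts. On simulated counts, all 200 of 200 changed genes (log2 fold 3, dispersion 0.05) were recovered between MIX and GV with 0 false calls (12910 genes). The changed genes were drawn only from those with higher counts, so recovery of rare or more variable genes was not tested. Figures were drawn with matplotlib 3.10.9 in Python 3.11.15, using a pseudocount of 0.1 in the map of levels.

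Every member is named. For the highest and lowest member of each group by role and for related genes, values are given for each GV library and each MII and ‘damaged’ library or the median and range of MIX, and from each list up to 4 of the largest changes each way. The members and lists were chosen with earlier results of these data known.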

Additional observations from a re-analysis of the deposited data

Results flagged for a closer look

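In 8 of 90 groups of member levels, 1 library stood apart from the others of its group by Dixon's ratio, which chance gives in about 1 of 20 groups. MII replicate 3 was high for *TOMM20L* (21.2 CPM, others 9.34 to 12.2), *MTX1* (1.97, others 0.777 to 1.12), *TIMM8A* (1.63, others 0.210 to 0.468) and *SAMM50* (4.10, others 1.33 to 2.06). ‘Damaged’ replicate 3 was high for *TOMM20L* too (21.0 CPM, others 10.4 to 13.3). GV replicate 1 was low for *MTX1* (4.74 CPM, others 6.10 to 6.34), GV replicate 5 was high for *TIMM44* (32.7 CPM, others 20.4 to 22.0), and MII replicate 5 was high for *TIMM10B* (249.9 CPM, others 166 to 190). All of these values of *TOMM20L*, *MTX1*, *TIMM8A* and *SAMM50* kept the gap between GV and MIX libraries.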

How the results depend on the processing

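The number of members higher than GV fell from 4 to 2 in MIX, to 2 in MII and to 1 in ‘damaged’ oocytes on library sizes, and to 2 in MII with a filter of 10 CPM, which kept 23 members. The number of higher DEGs, 0, became 1 in ‘damaged’ versus GV without a filter, with all 5 GV libraries and with estimated counts summed per gene, and 0 to 1 when 1 library was left out, in each of the 3 comparisons with GV. Without GV replicate 1 it was 1 in all 3. Signs turned on library sizes for *GRPEL2* (-0.52), *MTX2* (-0.53), *PMPCB* (-0.059) and *TIMM8B* (-0.10), with summed counts for *TIMM10B* (0.25), and without GV replicate 5 for *TIMM44* (-0.145 to 0.089 over the libraries left out). The cause was not tested. *PMPCB* missed the threshold with the filter of 10 CPM (FDR 0.0224). *TIMM10B* passed it on library sizes (-1.17), with that filter (-0.60) and without GV replicate 5 (-0.46), *TIMM21* on library sizes (-1.27), with that filter (-0.69) and with the replicate block (-0.53), *TIMM44* on library sizes (-0.97), and *MTX2* with summed counts (0.59). On library sizes *MTX2* and *GRPEL2* were called lower, and *PMPCB* and *TIMM8B* lost their call. All other alternatives run for gene log2 fold changes gave the same call at the FDR threshold. Over all genes, 7947 were lower and 1571 higher on library sizes, against 4887 and 3973. Isoform calls numbered 12 to 17 over the alternatives and 10 to 15 with 1 library left out. Those of *TIMM22*, *MTX3* (792 bases) and *MTX1* (1175 bases) were lost in some of them. Equal replicate numbers were not taken to pair libraries, since no label ties a number to a collection. Yet pairs of equal number correlated over 0.1 more often (5 of 13), and 8 of 14 libraries correlated best with their own number. Among pairs of other numbers, only GV 1 with ‘damaged’ 3 (0.15), GV 2 with MII 1 (0.13) and MII 4 with ‘damaged’ 2 (0.33) did so. Libraries of equal number may thus share a collection, which the main fit does not take into account. The replicate block gave 26 members called instead of 25 in MIX versus GV. Low counts limit *TOMM40*, *TOMM40L*, *TIMM8A*, *TIMM10* and *PMPCA*.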
